A study of Mus musculus with 83 samples.

Results

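Axon guidance genes encode the secreted cues and the surface receptors by which growing nerve fibers, and many other migrating cells, find their way. A set of 10 such genes was followed through the adult life of the mouse colon. The secreted ligands were Slit1, Slit2, Slit3, Ntn1, Ntn4 and Reln, and the receptors were Robo1, Robo2, Unc5c and Dcc. They were taken by gene symbol, mapped from the Ensembl identifiers, from a count table of 37764 genes. The table holds bulk RNA-seq from the colon of 83 male C57BL/6J/Ukj mice that were kept only to age, with no treatment named, and each sample is 1 mouse. The groups of 3, 9 and 15 months held 16 mice each, that of 24 months 17 mice and that of 28 months 18 mice. The proximal part of the rinsed colon was used, so mucosa, muscle, nerve plexus and vessels were sequenced as a mixture of RNA. In such bulk samples, fewer cells of a type and less RNA per cell cannot be told apart. Females were not studied.

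Slit proteins bind Robo receptors and act mostly as repellents, in the nervous system as well as on vessels and immune cells. Netrins are laminin-related proteins that attract axons through Dcc or Neo1 and repel them through the Unc5 receptors. Reelin is a large matrix protein that signals through Vldlr and Lrp8 to the adaptor Dab1, and it is best known for the layering of the cortex. In the gut, Slits and netrins steer vagal and enteric nerve fibers during development. Outside the nervous system, Reln is expressed by lymphatic endothelium, and Ntn4 is a component of basement membranes.

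The levels of the 10 genes covered a wide range when compared per transcript length, as length-scaled transcript abundance (TPM). Ntn4 (20.9 ± 3.95 TPM, mean ± SD over the 83 mice) and Ntn1 (17.0 ± 3.11 TPM) stood at the top. Slit3 followed at 4.70 ± 1.47 TPM, Reln at 1.55 ± 0.294 TPM and Robo2 at 1.49 ± 0.287 TPM. Below 1 TPM were Robo1 (0.870 ± 0.168 TPM), Slit2 (0.611 ± 0.125 TPM), Slit1 (0.509 ± 0.169 TPM) and Unc5c (0.151 ± 0.0447 TPM). The order of neighboring genes was firm for most pairs, since Ntn1 exceeded Slit3, Slit3 exceeded Reln, and Robo2 exceeded Robo1 in 83 of 83 mice. It was not firm for 3 pairs, in which the mean difference was smaller than its SD between mice: Ntn4 exceeded Ntn1 in 67 mice, Slit2 exceeded Slit1 in 64 mice, and Reln exceeded Robo2 in 46 mice. A gene's length is the same in every mouse, so agreement between mice does not test the length used. By read count Reln (median 436 per mouse) stood above Slit3 (median 322).

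Dcc, the attractive netrin receptor, was at the limit of detection in every age group. Between 0 and 5 read pairs were counted per mouse, and 18 of the 83 mice had none. From the youngest group to the oldest, the summed counts were 32, 31, 28, 32 and 30. No difference between ages was detectable at this depth, and Dcc did not pass the filter on low counts, so the tests below cover 9 of the 10 genes. Some other netrin receptors were far higher per length: Unc5b, a repulsive receptor also known from blood vessels, averaged 61.1 ± 7.05 TPM, Neo1, the paralog of Dcc, 38.0 ± 4.15 TPM, and Unc5a 6.26 ± 1.18 TPM. Unc5d (0.233 ± 0.108 TPM) was low, as was Unc5c. The most abundant Robo was Robo4, the endothelial member of the family, at 4.85 ± 0.671 TPM.

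**Figure D1:**
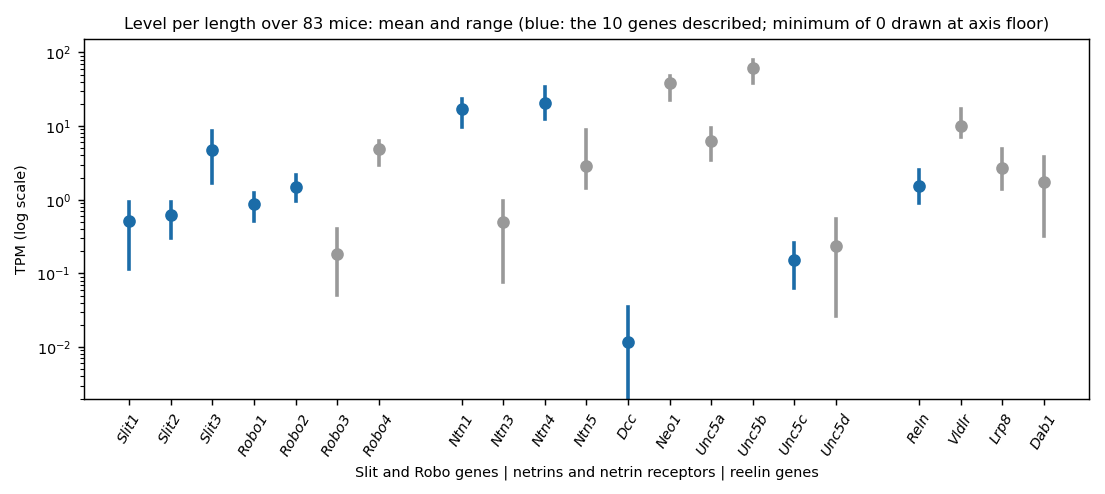
Level per length (TPM, log scale) of the 10 genes (blue) and of other genes of the Slit, netrin and reelin systems (gray) over 83 mice; points are means and lines span the lowest to the highest mouse. Ntn4 and Ntn1 reach 20.9 and 17.0 TPM, Dcc stays near 0.0116 TPM, and the netrin receptors Unc5b and Neo1 lie above all 10 genes.

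On GRCm38, the build of the files, all 10 genes are annotated as protein coding, and counts cover their exons. Slit3 lies on chromosome 11 (35121224 to 35708507, plus strand), Reln on chromosome 5 (21884454 to 22344702, minus strand), Ntn4 on chromosome 10 (93640681 to 93747207, plus strand) and Robo2 on chromosome 16 (73891839 to 74411825, minus strand). Ntn1 shares chromosome 11 with Slit3 (68209364 to 68400823, minus strand), and Robo1 shares chromosome 16 with Robo2 (72308306 to 73046095, plus strand). Slit1 is on chromosome 19 (41600257 to 41743665, minus strand), Slit2 on chromosome 5 (47983138 to 48307733, plus strand), Unc5c on chromosome 3 (141465216 to 141834924, plus strand) and Dcc on chromosome 18. The counting used the strand of the reads. Genes annotated on the same strand within the bounds of a gene numbered 6 for Slit2, among them Mir218-1, 3 each for Slit3 (among them Mir218-2), Robo2 and Reln, and 1 each for Ntn1 and Unc5c.

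The genes of the table took up 23026370 to 75838290 read pairs in each mouse (median 35495123). Of the 10 genes, Ntn1 had the highest median count (1277 per mouse) and Slit1 (36) and Unc5c (33) the lowest apart from Dcc. Libraries were prepared in 3 batches, each with 4 to 7 mice of every age, and batch was a term of the model. Changes are given as log2 fold changes, with the older age in the numerator, and a gene was called at an adjusted p-value below 0.1, the threshold of the study. Levels for single mice are normalized counts scaled by library size (CPM).

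Successive ages and the span from 3 to 28 months were tested. Of the 9 genes tested, 4 rose from 15 to 24 months, namely Slit3, Robo2, Ntn4 and Reln, and 0 fell. Among all 18325 genes tested in this comparison, 13.5% were called, 6.28% higher and 7.24% lower at 24 months. The median change of the 9 genes was 0.18 on the log2 scale, against 0.00 over all genes tested. From 24 to 28 months, 1 gene (Ntn4) rose, where 11.7% of all genes were called and 5.66% were called higher. From 3 to 28 months, 4 genes rose (Slit3, Ntn4, Reln and Ntn1) and 0 fell. The background was much higher there, with 49.4% of all genes called, 23.5% higher and 25.9% lower, so that 4 of 9 (44.4%) is near the share of all genes called. The study had picked Ntn1 and Reln, among other genes, from these samples, for a mid-to-late-life course in both expression and methylation. The set was put together with results of these data known, so these counts are not independent evidence of a direction.

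**Figure D2:**
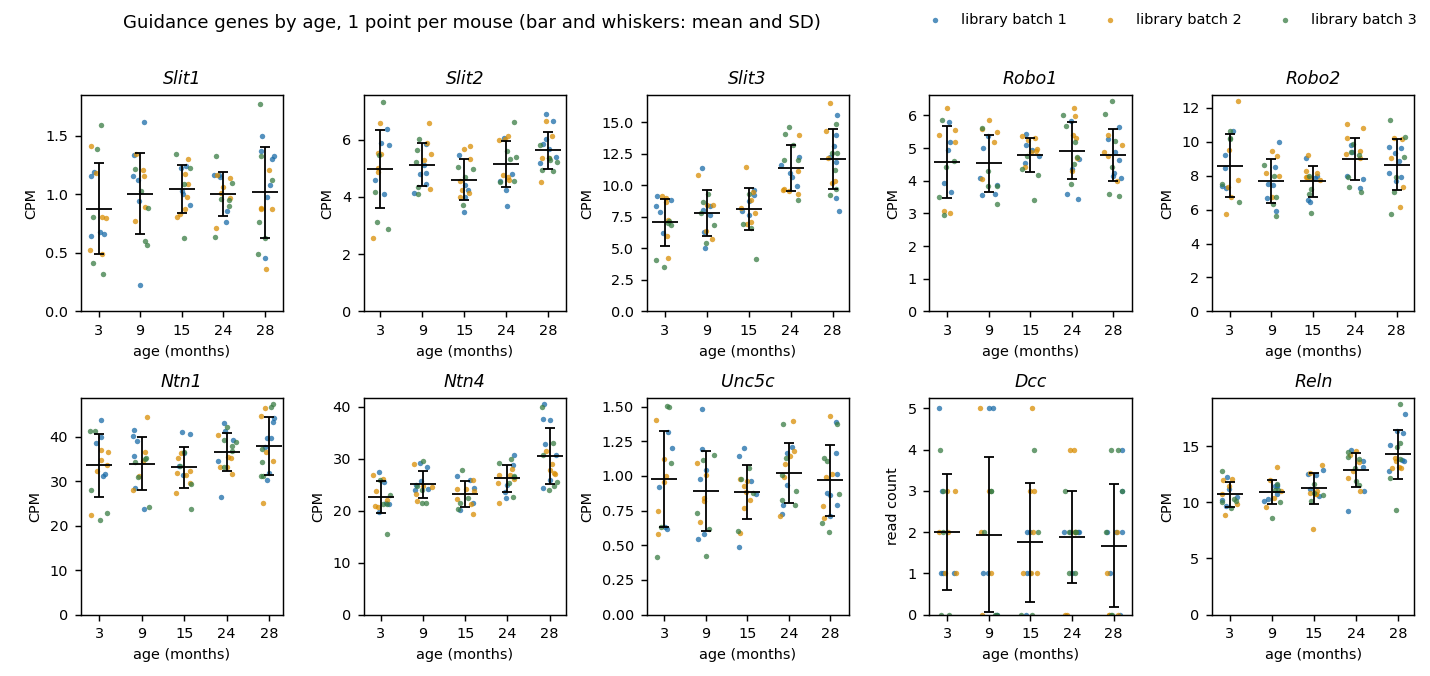
CPM (read counts for Dcc) of the 10 genes by age, with 1 point per mouse colored by library batch; bars and whiskers are the mean and SD of 16 to 18 mice. Slit3 and Reln sit higher at 24 and 28 months than at the 3 younger ages, Ntn4 is highest at 28 months, and Robo2 is lowest at 9 and 15 months.

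**Figure D3:**
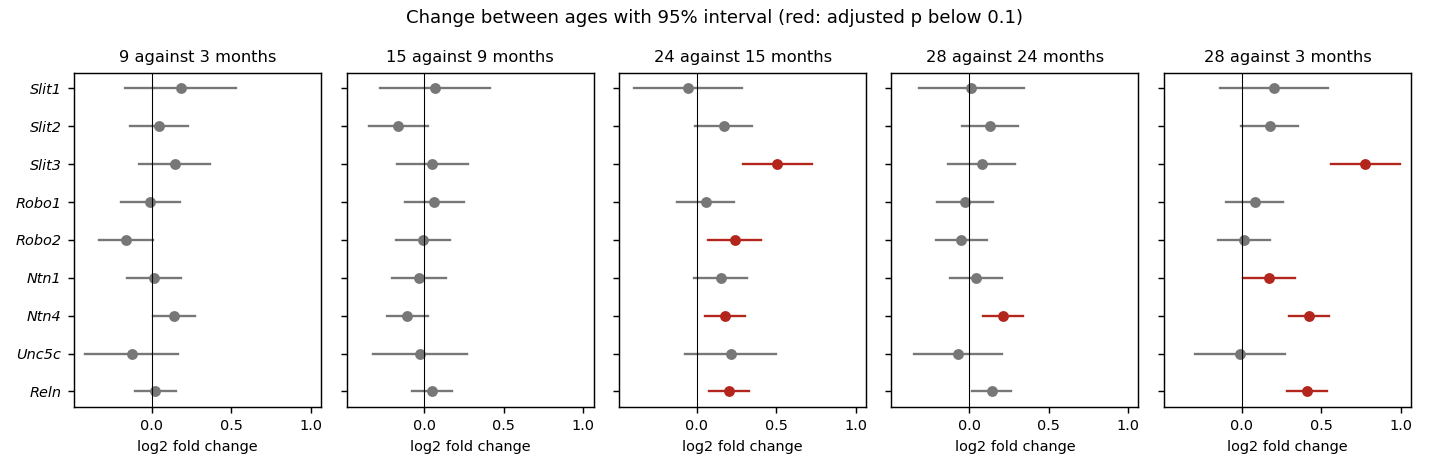
Log2 fold change of the 9 tested genes in each comparison, with the 95% confidence interval; red marks an adjusted p-value below 0.1. The changes of Slit3 from 15 to 24 months (0.51) and from 3 to 28 months (0.78) are the largest of the set.

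Slit3 changed the most. Its level ran from 3.52 to 9.12 CPM at 3 months (median 7.22), from 5.0 to 11.4 CPM at 9 months (median 7.91) and from 4.18 to 11.5 CPM at 15 months (median 8.06). It then ran from 8.85 to 14.6 CPM at 24 months (median 11.1) and from 7.95 to 16.5 CPM at 28 months (median 12.2). All 17 mice of 24 months lay above the 15-month median and 8 of them above the highest 15-month mouse, so the groups were shifted but overlapped. Slit3 rose by 0.51 on the log2 scale from 15 to 24 months (SE 0.11, adjusted p = 0.00177), a 1.42-fold change. With the score of blood endothelial markers as a covariate, an alternative added after the data were seen, the change was 0.24 and did not pass (adjusted p = 0.103), and with the mesothelial and lymphatic scores, also added then, it was 0.30 (adjusted p = 0.0525). Within batches the difference was 0.36, 0.31 and 0.91, with the same direction in each. From 3 to 28 months the rise was 0.78 (SE 0.11, adjusted p = 1.47e-08), and 16 of the 18 oldest mice exceeded the highest mouse of 3 months. The steps from 3 to 9 months (0.14, 95% interval -0.08 to 0.37), from 9 to 15 months (0.05, -0.17 to 0.27) and from 24 to 28 months (0.08, -0.13 to 0.29) did not pass the test. The departure of Slit3 from a linear course over age did not pass (adjusted p = 0.424), except with the smooth muscle and fibroblast scores as covariates (adjusted p = 0.0188).

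The other Slits moved less. Slit2, a repellent of axons and leukocytes, had medians of 5.24, 5.16, 4.48, 4.80 and 5.38 CPM at the 5 ages in order, with single mice between 2.57 and 7.32 CPM. The lowest median was that of 15 months and the highest that of 28 months, with broad overlap. It differed among ages in the test of any age difference (adjusted p = 0.0622; 54.9% of all genes were called in this test), while none of the 5 pairs of ages tested passed. Ages of 15 and 28 months, those of the lowest and the highest median, were not compared directly. The call over all ages was lost without batch 1 (adjusted p = 0.367) or batch 2 (0.115) and with the mesothelial and lymphatic (0.275) or the blood endothelial (0.146) scores as covariates. Its change was -0.16 from 9 to 15 months (adjusted p = 0.598), 0.17 from 15 to 24 months (adjusted p = 0.245), 0.13 from 24 to 28 months (adjusted p = 0.408) and 0.18 from 3 to 28 months (adjusted p = 0.103). Slit1, the Slit best known from neurons, was low throughout, between 0.229 and 1.77 CPM, with a change of -0.06 from 15 to 24 months (95% interval -0.40 to 0.28) and of 0.21 from 3 to 28 months (95% interval -0.13 to 0.55). Neither passed the test, and the intervals leave room for changes as large as those of Ntn4 and Reln. With the enteric neuron and glia scores as covariates, the change of Slit1 from 3 to 28 months was 0.48 and passed (adjusted p = 0.000713), whereas it was -0.27 with the mesothelial and lymphatic scores (adjusted p = 0.226) and -0.017 with the blood endothelial score (adjusted p = 0.949).

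Robo2, a receptor of the Slits on neurons and mesenchyme, ran from 5.75 to 12.4 CPM at 3 months (median 8.10), from 5.60 to 9.96 CPM at 9 months (median 7.72), from 5.79 to 9.21 CPM at 15 months (median 7.89), from 7.06 to 11.1 CPM at 24 months (median 9.29) and from 5.75 to 11.3 CPM at 28 months (median 8.96). The 2 middle ages were low and both ends of life higher, with overlap between all groups. Robo2 rose by 0.24 from 15 to 24 months (SE 0.08, adjusted p = 0.0623), and 10 of 17 mice of 24 months exceeded the highest mouse of 15 months. Its changes from 3 to 9 months (-0.16, adjusted p = 0.270) and from 3 to 28 months (0.02, 95% interval -0.15 to 0.18) did not pass. With the mesothelial and lymphatic scores as covariates the change from 15 to 24 months was 0.15 (adjusted p = 0.368), and with the blood endothelial score 0.16 (adjusted p = 0.280). Robo2 departed from a linear course over age (adjusted p = 0.0983), as did 16.2% of all genes, but not with the mouse number as a replicate block (adjusted p = 0.109), with no batch term (0.119), with no filter on low counts (0.166), with the mesothelial and lymphatic (0.256) or blood endothelial (0.140) scores, or without batch 1 (0.382), 2 (0.121) or 3 (0.407). Within batches the change from 15 to 24 months was 0.16, 0.29 and 0.28, but with 1 batch left out it no longer passed (adjusted p of 0.132, 0.343 and 0.149 without batches 1, 2 and 3, from fewer mice).

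Robo1, a Slit receptor of neurons and many other cells, passed no test in the model of age and batch. Its medians were 4.77, 4.19, 4.90, 4.71 and 4.82 CPM at the 5 ages, with single mice between 2.95 and 6.45 CPM, and the groups overlapped throughout. The changes were 0.06 from 15 to 24 months (95% interval -0.13 to 0.24) and 0.08 from 3 to 28 months (95% interval -0.10 to 0.26), and the test of any age difference gave an adjusted p of 0.698. With the mesothelial and lymphatic scores as covariates, Robo1 was lower at 28 than at 3 months (-0.19, adjusted p = 0.0599). Of the 5 further genes of the Slit and Robo system, Robo4 rose from 15 to 24 months (0.22, SE 0.06, adjusted p = 0.0138), and Srgap1, an intracellular partner of Robo, rose from 3 to 28 months (0.22, SE 0.06, adjusted p = 0.00122). Robo3, Srgap2 and Srgap3 were called in neither comparison.

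Ntn4 rose in 2 steps late in life. It ran from 15.6 to 27.4 CPM at 3 months (median 21.7), from 21.5 to 29.5 CPM at 9 months (median 24.7) and from 19.4 to 27.8 CPM at 15 months (median 23.1). At 24 months it ran from 21.6 to 30.6 CPM (median 26.6) and at 28 months from 24.0 to 40.4 CPM (median 29.9). All 18 mice of 28 months lay above the median of 3 months and 11 above the highest mouse of that age, and 9 exceeded the highest mouse of 24 months. The rise was 0.18 from 15 to 24 months (SE 0.06, adjusted p = 0.0713), 0.21 from 24 to 28 months (SE 0.06, adjusted p = 0.0232) and 0.42 from 3 to 28 months (SE 0.06, adjusted p = 9.29e-08). Its changes of 0.14 from 3 to 9 months (adjusted p = 0.213) and -0.11 from 9 to 15 months (adjusted p = 0.637) did not pass, and its course was not linear (adjusted p = 0.0307), a call lost without batch 1 (adjusted p = 0.370) or batch 2 (adjusted p = 0.190). The step from 24 to 28 months was 0.32 in batch 1, 0.15 in batch 2 and 0.13 in batch 3, and it no longer passed without batch 1 (0.15, adjusted p = 0.353). The step from 15 to 24 months did not pass without any 1 of the batches (adjusted p of 0.121, 0.359 and 0.228), nor without 15-month mouse 1 (0.109), 8 (0.107) or 13 (0.118) or 24-month mouse 10 (0.107), 15 (0.104) or 16 (0.108), where the numbers in brackets are adjusted p-values. With the enteric neuron and glia scores as covariates it was 0.11 (adjusted p = 0.443).

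Ntn1, the classical netrin, had medians of 34.2, 34.7, 32.9, 36.7 and 37.5 CPM at the 5 ages, and its mice spread from 21.2 to 47.4 CPM. The groups overlapped almost entirely, with 5 of the 18 oldest mice above the highest mouse of 3 months. Ntn1 rose by 0.17 from 3 to 28 months (SE 0.08, adjusted p = 0.0829), with 0.04, 0.18 and 0.33 within batches 1, 2 and 3. With the mesothelial and lymphatic scores as covariates the direction turned, to -0.13, and passed as a fall (adjusted p = 0.0845), and with the blood endothelial score the change was -0.0047 (adjusted p = 0.968). Its change of 0.15 from 15 to 24 months did not pass (95% interval -0.02 to 0.32, adjusted p = 0.267). The call at 28 against 3 months was lost without 3-month mouse 10 (adjusted p = 0.118), 11 (0.116), 12 (0.152), 14 (0.124) or 16 (0.173) and without 28-month mouse 6 (0.147), 8 (0.145) or 15 (0.141). It was also lost without batch 2 (adjusted p = 0.178) or batch 3 (adjusted p = 0.332), with the smooth muscle and fibroblast scores as covariates (0.07, adjusted p = 0.265), with the epithelial score (adjusted p = 0.104), with no filter on low counts (adjusted p = 0.116) and with only the 2 ages fitted (adjusted p = 0.112).

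None of the netrin receptors tested was called higher from 15 to 24 or from 3 to 28 months. Unc5c, a repulsive receptor, had medians between 0.908 and 1.01 CPM, with changes of 0.21 from 15 to 24 months (95% interval -0.08 to 0.50) and -0.01 from 3 to 28 months (95% interval -0.29 to 0.27), neither past the test. With the mesothelial and lymphatic scores as covariates, its change from 3 to 28 months was -0.35 and passed (adjusted p = 0.0523). Of the 15 further netrin genes, 0 rose and 1 fell from 15 to 24 months (6.67%, against 13.5% of all genes), and 1 rose and 3 fell from 3 to 28 months (26.7%, against 49.4%). Unc5a fell from 9.80 ± 0.907 CPM (SD, n = 16) at 3 months to 6.90 ± 1.01 CPM (n = 18) at 28 months, a change of -0.52 (SE 0.06, adjusted p = 3.56e-10), and by 0.20 from 15 to 24 months (SE 0.06, adjusted p = 0.0384). Ntng2, a membrane-anchored netrin relative, rose by 0.59 from 3 to 28 months (SE 0.10, adjusted p = 1.24e-06). The 2 most abundant receptors did not pass: Unc5b had a change of -0.02 (95% interval -0.13 to 0.08) and Neo1 of -0.06 (95% interval -0.15 to 0.04) from 3 to 28 months.

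Reln climbed in the older groups. It ran from 8.83 to 12.8 CPM at 3 months (median 10.4), from 8.56 to 13.2 CPM at 9 months (median 11.1) and from 7.66 to 13.4 CPM at 15 months (median 10.9). At 24 months it ran from 9.24 to 14.7 CPM (median 13.2) and at 28 months from 9.29 to 18.8 CPM (median 13.8). Of the 18 oldest mice, 17 lay above the median and 15 above the highest mouse of 3 months. Reln rose by 0.20 from 15 to 24 months (SE 0.06, adjusted p = 0.0365) and by 0.41 from 3 to 28 months (SE 0.06, adjusted p = 1.29e-07). The earlier of these changes did not pass with the mesothelial and lymphatic scores (0.06, adjusted p = 0.609) or the blood endothelial score (0.13, adjusted p = 0.224) as covariates. The change of 0.14 from 24 to 28 months did not pass (adjusted p = 0.147). It passed in 4 alternatives, namely with at least 10 counts in every mouse (0.0985) and with the smooth muscle and fibroblast (0.0586), neuron and glia (0.0336) or blood endothelial (0.0938) scores, and without 9-month mouse 10 (0.0987) or 28-month mouse 1 (0.0557), 2 (0.0999) or 4 (0.0808). From 15 to 24 months the within-batch differences were 0.04, 0.26 and 0.28, and the call did not hold without batch 2 (adjusted p = 0.338) or batch 3 (adjusted p = 0.193).

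Genes of the reelin pathway changed in both directions. Dab1, the adaptor downstream of the reelin receptors, fell from 6.48 ± 1.40 CPM (SD, n = 16) at 3 months to 2.1 ± 0.929 CPM (n = 18) at 28 months. Its change was -1.60 over this span (SE 0.15, adjusted p = 2.15e-15), -0.52 from 15 to 24 months (SE 0.15, adjusted p = 0.0168) and -0.68 from 24 to 28 months (SE 0.14, adjusted p = 0.00136). Vldlr rose by 0.25 from 3 to 28 months (SE 0.07, adjusted p = 0.00154) and by 0.21 from 24 to 28 months (SE 0.07, adjusted p = 0.0399), whereas Lrp8 had a change of 0.06 from 3 to 28 months that did not pass (adjusted p = 0.769).

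RefSeq promoter windows on GRCm38.p6 were given for 7 of the 10 genes, and the 250 bases before the transcript start were searched. Slit3 (35 CpG dinucleotides) and Reln (37) had more CpGs than 97.03% and 97.80% of the 32851 windows of this length, whose median was 6. GC boxes, here the letters GGGCGG on either strand with overlapping matches counted, occurred 6 times each before Slit3 and Reln, 4 times before Ntn4, 3 times before Slit2 and not before Robo1, Robo2 or Unc5c. Of all windows, 32.7% held at least 1. The windows of Ntn4, Robo1 and Unc5c lie wholly and that of Slit3 mostly inside the annotated gene. Robo2 has 3 windows, with 14, 8 and 4 CpGs. The window of Reln and the Robo2 window next to the annotated gene lie outside the genes and are printed as examples with and without GC boxes, which are in capitals.
Reln, chr5:22344706-22344955, minus strand: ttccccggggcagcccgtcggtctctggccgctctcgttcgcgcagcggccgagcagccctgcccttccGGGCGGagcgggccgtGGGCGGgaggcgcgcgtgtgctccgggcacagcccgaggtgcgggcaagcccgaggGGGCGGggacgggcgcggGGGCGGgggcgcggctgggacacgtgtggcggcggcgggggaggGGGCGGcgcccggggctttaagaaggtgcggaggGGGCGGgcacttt
Robo2, chr16:74411826-74412075, minus strand: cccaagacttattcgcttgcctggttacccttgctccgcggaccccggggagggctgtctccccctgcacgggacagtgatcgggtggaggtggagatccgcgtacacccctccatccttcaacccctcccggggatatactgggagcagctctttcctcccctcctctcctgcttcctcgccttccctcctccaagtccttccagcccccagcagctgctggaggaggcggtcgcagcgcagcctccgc
The Robo2 window printed holds 14 CpGs, and all 3 hold 0 GC boxes. A match of letters describes the window and shows no binding.

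The semaphorin and ephrin families and the partners above make up the other guidance genes. Of 76 further axon guidance genes listed, 73 were tested, and 8 rose and 4 fell from 15 to 24 months (16.4%, against 13.5% of all genes). From 3 to 28 months 14 rose and 18 fell (43.8%, against 49.4%). Among the semaphorins and their plexin and neuropilin receptors, 30 were tested. Of these, 9 rose and 6 fell from 3 to 28 months (50%, against 49.4% of all genes). Between 24 and 28 months 1 rose and 2 fell (10%, against 11.7%). From 15 to 24 months 6 rose and 0 fell (20%, against 13.5%, with 6.28% of all genes called higher). Plxnd1, an endothelial semaphorin receptor, rose from 27.2 ± 3.18 CPM (SD, n = 16) to 32.3 ± 3.49 CPM (n = 17), a change of 0.26 (adjusted p = 0.00191), Sema3d rose by 0.28 (adjusted p = 0.0471) and Sema3g by 0.26 (adjusted p = 0.00696). Of 20 ephrins and Eph receptors, 1 rose and 2 fell from 15 to 24 months (15%, against 13.5% of all genes). At 28 against 3 months 2 were higher and 8 lower (50%, against 49.4% of all genes, 23.5% higher and 25.9% lower). Efna3 fell by 1.38 on the log2 scale over that span (SE 0.20, adjusted p = 4.50e-08).

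The other rises and falls named by the fixed rule were as follows. From 3 to 28 months Sema3d rose by 0.53 (adjusted p = 2.56e-06) and Sema7a by 0.51 (adjusted p = 8.06e-08). Sema7a had already risen from 3 to 9 months (0.32, adjusted p = 0.00802), where Epha1 (-0.29, adjusted p = 0.0110), Efna4 (-0.23, adjusted p = 0.0317) and Ephb4 (-0.14, adjusted p = 0.0559) fell. Efna3 fell from 15 to 24 months (-0.54, adjusted p = 0.0825). From 24 to 28 months Epha1 (0.20, adjusted p = 0.0636) and Sema3c (0.17, adjusted p = 0.0791) rose, and Efna3 (-0.63, adjusted p = 0.0371) and Sema6d (-0.29, adjusted p = 0.00585) fell.

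Early adult life passed without a call among the 9 genes. From 3 to 9 months 0 of 9 were called, where 8.69% of all genes were, and the smallest unadjusted p-values of the set were 0.0355 for Ntn4 and 0.0561 for Robo2. From 9 to 15 months 0 of 9 were called, where 0.431% of all genes were, and none had an unadjusted p below 0.0792, the value of Slit2. At an unadjusted p below 0.05, 3576 and 1683 of all 18325 genes differed in these comparisons. DESeq2 also called 0 of 9 in both. Over all 5 ages together, Slit2, Slit3, Robo2, Ntn4 and Reln differed with age (5 of 9, against 54.9% of all genes). The call of Robo2 in that test (adjusted p = 0.0290) was lost without batch 1 (0.145) or batch 3 (0.171) and with the mesothelial and lymphatic (0.216) or blood endothelial (0.118) scores as covariates, and that of Slit2 as given above, while those of Slit3, Ntn4 and Reln passed in each alternative. With the mesothelial and lymphatic scores Slit1 (0.0625), Robo1 (0.0717) and Ntn1 (0.0978) passed instead. In the model without scores Robo2 and Ntn4 departed from a straight line (2 of 9, against 16.2%), a count that was 1 in 48 of the 83 fits without 1 mouse.

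Markers of cell types in the gut wall also differed between these ages. From 15 to 24 months, where 13.5% of all genes were called and 6.28% called higher, 4 of 5 blood endothelial markers rose, 3 of 4 macrophage markers, 2 of 5 lymphatic endothelial markers, 2 of 5 glial markers, 1 of 3 mesothelial markers and 1 of 6 fibroblast markers, while 0 of 6 smooth muscle, 0 of 7 enteric neuron and 0 of 5 epithelial markers were called. The summed TPM of the blood endothelial markers ran from 89.5 to 188 at 15 months and from 156 to 202 at 24 months, that of the lymphatic markers from 48.0 to 71.4 and from 56.2 to 81.1, and that of the mesothelial markers from 1.70 to 5.39 and from 1.16 to 9.37. From 3 to 28 months 49.4% of all genes were called, 23.5% higher and 25.9% lower. All 3 mesothelial markers rose, with a median change of 1.25, and so did 4 of 5 lymphatic, 4 of 5 blood endothelial and 3 of 4 macrophage markers. Falls were called for 3 of 5 epithelial and 2 of 3 B cell markers, and the median change of the B cell markers was -1.31. Rises were also called for 2 of 6 fibroblast, 1 of 5 glial and 1 of 3 adipocyte markers. Falls were also called for 1 of 6 fibroblast and 1 of 7 enteric neuron markers. Apart from adipocytes, every marker of these cell types was detected in every mouse. Of the 3 adipocyte markers, Adipoq was at 0 in 2 mice and Plin1 in 4.

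With such marker scores in the model, the calls moved in both directions. From 15 to 24 months 1 of 9 genes was called with the mesothelial and lymphatic scores as covariates, and again 1 of 9 with the blood endothelial score. With the mesothelial and lymphatic scores the calls over all genes tested fell too, from 2476 to 868, so the lower count is not particular to the 9 genes. The count over all genes with the blood endothelial score is not given here. With the smooth muscle and fibroblast scores the count rose from 1 to 5 of 9 at 28 against 24 months and from 2 to 5 of 9 for the departure from a straight line. Over all genes tested, the calls at 28 against 24 months were 2139 without scores and at most 3135 in any alternative. For the departure from a straight line they were 2969 and at most 3990. The rises of Slit3, Ntn4 and Reln from 3 to 28 months passed in each of the 16 alternatives, with changes of 0.41 to 0.90, 0.35 to 0.51 and 0.24 to 0.48.

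Among mice of the same age, most of the 9 genes varied with markers of the muscle and nerve layers. Each gene's log2 CPM was compared with 12 cell type scores (the mean log2 CPM of 3 to 7 markers) across the 83 mice, with age group and batch removed, and 77 of 108 pairs passed an adjusted p of 0.1 in a two-sided permutation test with 100000 resamples. A score follows the RNA of its markers in the piece of tissue taken, and several scores share this source, so the pairs are not independent of each other. The 3 and 9-month groups had the widest spread of muscle in the sample, with a smooth muscle score between 6.73 and 9.34 at 3 months and between 8.65 and 9.19 at 15 months.

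**Figure D4:**
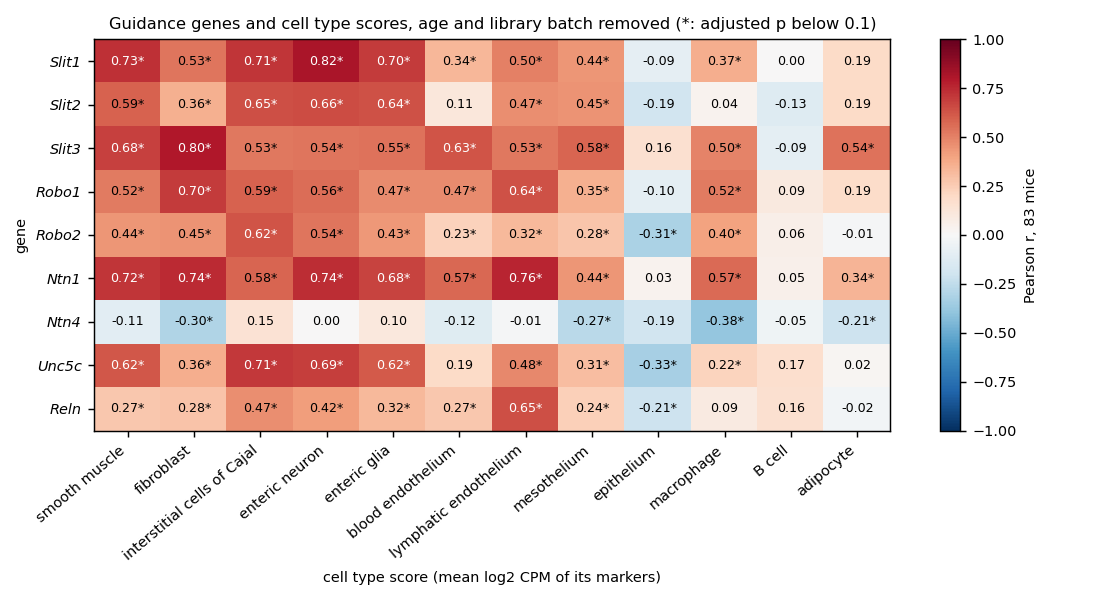
Pearson's r between each of the 9 tested genes (rows) and each cell type score (columns) over 83 mice, with age group and library batch removed; asterisks mark an adjusted permutation p below 0.1. The strongest cells are Slit1 with the enteric neuron score (0.82) and Slit3 with the fibroblast score (0.80), and the Ntn4 row holds no positive cell past the threshold.

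Slit1 followed the enteric neuron score most closely (Pearson's r = 0.82, Spearman's rho = 0.79, adjusted permutation p = 2.51e-05, r = 0.76 without the 2 mice farthest from the median score), with r of 0.75, 0.74 and 0.91 within the 3 batches, of which the first gave a higher r with the smooth muscle score (0.78). Slit3 followed the fibroblast score (r = 0.80, rho = 0.80, adjusted permutation p = 2.51e-05, 0.79 without 2 mice), with 0.71, 0.79 and 0.88 within batches. The adjusted value of 2.51e-05 is the smallest these permutations can give for r, and it applies to each pair in this paragraph. Slit2 had close values with the enteric neuron score (r = 0.66, rho = 0.51, 0.62 without 2 mice), that of the interstitial cells of Cajal, the pacemaker cells of the gut (r = 0.65, rho = 0.59), and the glial score (r = 0.64, rho = 0.48). Within batches its r was 0.45, 0.75 and 0.74 with the neuron score and 0.56, 0.71 and 0.69 with that of the interstitial cells, and in batch 1 it was highest with the mesothelial score (0.61).

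Unc5c (r = 0.71, rho = 0.69, adjusted permutation p = 2.51e-05) and Robo2 (r = 0.62, rho = 0.59, adjusted permutation p = 2.51e-05) were closest to the score of the interstitial cells of Cajal, and Robo1 to the fibroblast score (r = 0.70, rho = 0.65, adjusted permutation p = 2.51e-05). Without the 2 farthest mice these were 0.72, 0.63 and 0.67. Within batches Unc5c gave 0.82, 0.44 and 0.76, Robo2 0.68, 0.50 and 0.69, and Robo1 0.62, 0.67 and 0.77. The order of the scores was not the same in every batch. Unc5c was nearly as close to the enteric neuron score over all mice (r = 0.69, rho = 0.67) and closer to it in batch 2 (0.71), Robo2 was closer to the fibroblast (0.60) and neuron (0.57) scores in batch 2, and Robo1 was closer to the score of the interstitial cells of Cajal in batch 3 (0.81).

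Over all mice Ntn1 and Reln had their highest r with the lymphatic endothelial score. For Reln r was 0.65 (rho = 0.65, adjusted permutation p = 2.51e-05, 0.61 without 2 mice), with 0.60, 0.72 and 0.62 within batches. For Ntn1 r was 0.76 (rho = 0.75, adjusted permutation p = 2.51e-05, 0.74 without 2 mice), with 0.74, 0.86 and 0.71 within batches, and its r was nearly as high with the fibroblast (0.74, rho = 0.69) and enteric neuron scores (0.74, rho = 0.63). In batch 3 Ntn1 was closer to 5 other scores, led by enteric glia (0.84) and enteric neuron (0.82).

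Ntn4 had another pattern. It passed with no score in the positive direction and was lower where the macrophage (r = -0.38, rho = -0.39, adjusted permutation p = 0.000668), fibroblast (r = -0.30, rho = -0.31, adjusted permutation p = 0.00800), mesothelium (r = -0.27, rho = -0.24, adjusted permutation p = 0.0227) and adipocyte scores (r = -0.21, rho = -0.19, adjusted permutation p = 0.0799) were high. The macrophage value was -0.38, -0.29 and -0.46 within batches and -0.36 without the 2 farthest mice.

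Between the 9 genes themselves, 30 of 36 pairs passed, 29 of them positive. The highest was Slit3 with Ntn1 (r = 0.77, rho = 0.71, adjusted permutation p = 1.89e-05, 0.74 without 2 mice), with 0.74, 0.79 and 0.79 within batches. Slit1 with Unc5c came next (r = 0.69, rho = 0.71, adjusted permutation p = 1.89e-05). All 28 pairs without Ntn4 passed, from 0.26 for Robo2 with Reln upward. Of the 8 pairs with Ntn4, Slit2 was positive (r = 0.21, rho = 0.24, adjusted permutation p = 0.0673) and Slit3 negative (r = -0.21, rho = -0.22, adjusted permutation p = 0.0722), and the other 6 did not pass. Within batches Slit3 with Ntn4 gave -0.43, -0.21 and -0.05, so that the relation was near 0 in batch 3.

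The tested genes that varied most alike differed from member to member. Likeness was Pearson's r over the same 83 mice with age group and batch removed, and is given as a description. The genes most alike were Aebp1, Tnxb and Ltbp3 for Slit3 (0.89, 0.88 and 0.88), Timp2, Sdc3 and Aoc3 for Ntn1 (0.86, 0.86 and 0.84) and Kif5a, Dpysl5 and Clip3 for Slit1 (0.85, 0.84 and 0.84). For Ntn4 they were Hepacam2, Stra6l and Slc17a5 (0.80, 0.74 and 0.71). Reln had Mmrn1, a lymphatic marker that is part of the score above, Smad9 and Cped1 (0.64, 0.62 and 0.61). Slit2 had Kcna2, Rbms3 and Etv1 (0.73 each), of which Etv1 is part of the score of the interstitial cells of Cajal. Unc5c had Dlg2, Fam171b and Itga1 (0.77, 0.76 and 0.75), Robo1 had Col12a1, Tenm3 and Nid1 (0.78, 0.77 and 0.76), and Robo2 had Col12a1, Kcnn3 and Piezo2 (0.70, 0.65 and 0.64). An r above 0.7 was reached by 448 genes for Ntn1, 414 for Slit1 and 243 for Slit3, but by 8 for Ntn4 and 0 for Reln and Robo2.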

How the data were processed

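PolyA-selected RNA from the colon of 83 mice was sequenced with a stranded kit. The authors trimmed and filtered the reads, aligned them to GRCm38 with HISAT2 2.1.0, discarded reads without a unique position and counted proper pairs per gene, by strand, with featureCounts of Subread 2.0.1. The deposited counts are whole read pairs for each gene and mouse, neither normalized nor pooled.

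Genes were filtered with filterByExpr by age group and normalized with TMM in edgeR 4.0.16 (R 4.3.3). One quasi-likelihood model of age group and library batch over all 83 mice gave every comparison, with Benjamini-Hochberg adjustment over the 18325 genes kept and intervals at 95%. The study itself used DESeq2, which was run as an alternative (1.42.0). The quasi-likelihood test was also run on simulated counts, and the outcome is not given here. TPM used merged exon lengths of an Ensembl release earlier than the authors'; 37652 genes had a length. Scores and correlations were computed in Python 3.11.15 on log2 CPM (prior count 2).

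Genes named beyond the 10 were at most 3 rises and 3 falls per comparison (mean CPM over all mice 1 or more), and the 3 genes most alike per gene; receptors and partners of the 10 were named for their role after their values were seen. The 10 genes and all lists were chosen with earlier results of these data known. Alternatives were other tools, filters, batch and replicate terms, cell type scores as covariates, thresholds, and leaving out mice or batches.

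Samples with the same replicate number did not vary together (median r of 0.01 for 161 pairs, 0.00 for 2593 others), so numbers do not pair the mice. All 649 pairs of mice of 1 age differed by at least 10.9 times the counting noise.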

Additional observations from a re-analysis of the deposited data

How the results depend on the processing

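The count of the 9 tested genes called moved by over 1.5 times in some settings. From 15 to 24 months 4 were called, but 2 with no filter on low counts, 2 at an adjusted p below 0.05, 1 with the mesothelial and lymphatic scores, 1 with the blood endothelial score (both added after the data were seen), and 2, 1 and 1 without batches 1, 2 and 3. From 24 to 28 months the count was 1, but 2 with at least 10 counts in every mouse, 5 with the smooth muscle and fibroblast scores, 3 with the neuron and glia scores, 2 with the blood endothelial score and 0 without batch 1. In the test of any age difference it was 5, and 3 with the blood endothelial score. For the departure from a straight line it was 2, but 1 with no filter, 1 with no batch term, 1 with the replicate block, 5 with the smooth muscle and fibroblast scores, 1 with each of the 2 added sets of scores, 0, 0 and 1 without batches 1, 2 and 3, and 1 at an adjusted p below 0.05. Leaving out 1 mouse at a time gave 1 to 2 genes from 24 to 28 months and 1 to 2 for the departure from a straight line, the latter 1 in 48 of 83 fits. These fits kept the genes tested and the dispersion trend of the full fit. Apart from the fewer mice or genes of some settings, the cause was not tested.

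Of 398 single changes recomputed under the other settings, 334 kept direction and call, 28 lost the call, 13 gained one and 23 turned sign. The call of Slit2 from 3 to 28 months, adjusted p = 0.103, passed in 24 of the 83 fits without 1 mouse and in 5 other settings. Calls from 15 to 24 months were lost for Robo2 with no filter (adjusted p = 0.103) and with the smooth muscle and fibroblast scores (0.136), for Robo2 (0.280) and Reln (0.224) with the blood endothelial score, and for Ntn4 with no filter (0.123) and with the mesothelial and lymphatic scores (0.118). From 24 to 28 months Reln passed with at least 10 counts in every mouse (0.0985) and with the muscle and fibroblast (0.0586), neuron and glia (0.0336) and blood endothelial (0.0938) scores, and Slit2 with the muscle and fibroblast (0.0842) and the neuron and glia (0.0664) scores. Sign changes concerned genes that were not called, except Ntn1 from 3 to 28 months, which turned to -0.13 with the mesothelial and lymphatic scores and -0.0047 with the blood endothelial score. With the mesothelial and lymphatic scores the changes from 15 to 24 months became -0.16 for Robo1, -0.077 for Ntn1 and -0.035 for Unc5c, and those from 3 to 28 months -0.27 for Slit1, -0.051 for Slit2, -0.19 for Robo1 (adjusted p = 0.0599, a fall that passes) and -0.14 for Robo2, while Unc5c, -0.01 before, became -0.35 and passed (adjusted p = 0.0523). With the blood endothelial score they became -0.12 for Robo1 and -0.043 for Ntn1 from 15 to 24 months, and -0.017 for Slit1, -0.071 for Robo1 and -0.053 for Robo2 from 3 to 28 months. With the smooth muscle and fibroblast scores Robo1 became -0.071 (15 to 24 months) and Robo2 -0.043 (3 to 28 months), and with the epithelial score Robo2 became -0.063 (3 to 28 months). Robo1 became -0.029 from 15 to 24 months without batch 3, and Robo2 -0.0046 from 3 to 28 months without batch 2. Unc5c from 3 to 28 months became 0.028 with the replicate block, 0.13 with the neuron and glia scores, 0.033 without batch 3 and 0.0046 with only the 2 ages fitted. Without 1 mouse it ranged from -0.069 to 0.060, and Robo2 from -0.017 to 0.058 over the same span. Among the results of the 9 genes given in the text the replicate block altered 3 calls: Slit2 from 3 to 28 months (adjusted p = 0.0942) and Ntn1 in the test of any age difference (0.0856) then passed, and the departure of Robo2 from a straight line no longer did (0.109). The correlation counts moved by at most 1 with another prior count or DESeq2's size factors.

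Over all 18325 genes the number called also moved: from 2476 to between 404 and 3339 at 24 against 15 months, from 1593 to between 331 and 2291 at 9 against 3 months, from 79 to between 17 and 213 at 15 against 9 months, from 2139 to between 301 and 3135 at 28 against 24 months, and from 2969 to between 565 and 3990 for the departure from a straight line. Without 1 mouse they ranged from 855 to 1988 at 9 against 3 months and from 51 to 136 at 15 against 9 months. Dcc was at the limit of detection at this depth. Slit1 and Unc5c had the fewest counts of the 9 tested genes and the widest intervals, and the cause of that width was not tested.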
